A study of Mus musculus with 78 samples.

Results

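Mouse embryonic stem cells (mESCs) that had lost the transcription factor ZFP143 for 24 h were compared with cells that kept it, at the last point before retinoic acid (RA) was added. A gene entered the comparison when 2 or more of the 4 RNA-seq libraries held over 10 of its counts, which kept 15007 of the 55401 genes in the count table. Of these, 12920 were protein-coding. The cells were E14TG2a mESCs grown in 2i and LIF, in which both copies of Zfp143 carried an FKBP degron with an HA tag and eGFP at the C terminus. The dTAG group received 500 nM of the degrader dTAG-V1 for 24 h and the DMSO group received the solvent for as long, with 2 libraries in each group. The DMSO cells carried the degron as well, and all libraries came from the tagged line, so an effect of the degrader itself and an effect of ZFP143 loss cannot be told apart within this comparison. The experiment then went on to RA in a differentiation medium, and the libraries before RA give the state of depleted cells as the RA step began.

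ZFP143 is a zinc finger activator that binds close to the starts of many housekeeping genes, among them genes for mitochondrial proteins and for small RNA transcription. It recognises a long bipartite site known as SBS. Stem cells in 2i and LIF are held in the naive state, in which Pou5f1, Sox2 and Nanog keep up self-renewal. RA acts through nuclear receptors of the RAR and RXR families, so the receptor genes and the enzymes that make and clear RA bear on how a cell meets it.

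The promoters below belong to the genes with the greatest decreases, at a mean count of at least 100, that had a ZFP143 peak over the promoter, and show how short the matched letters are. They were taken from RefSeq on GRCm38.p6 and run 5′ to 3′ on the strand of the gene. Capitals mark matches on either strand to the motifs CCCANNATG and ACTACANNT, which are pieces of the SBS sites and were searched in windows from 250 bases before to 50 after the RefSeq start.
Mmachc, chr4:116708358-116708446, minus strand: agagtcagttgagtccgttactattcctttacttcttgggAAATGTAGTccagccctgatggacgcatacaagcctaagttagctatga
Usp40, chr1:88008530-88008618, minus strand: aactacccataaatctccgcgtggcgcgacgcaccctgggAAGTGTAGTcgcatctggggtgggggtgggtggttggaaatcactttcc
Zfp111, chr7:24208116-24208399, minus strand: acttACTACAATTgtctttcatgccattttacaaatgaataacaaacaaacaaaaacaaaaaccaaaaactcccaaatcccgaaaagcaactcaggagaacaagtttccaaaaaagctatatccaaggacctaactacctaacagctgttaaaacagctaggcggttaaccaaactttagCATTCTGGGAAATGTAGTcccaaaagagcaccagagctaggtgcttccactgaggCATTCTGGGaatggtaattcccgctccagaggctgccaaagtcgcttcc
Mpi, chr9:57552762-57552850, minus strand: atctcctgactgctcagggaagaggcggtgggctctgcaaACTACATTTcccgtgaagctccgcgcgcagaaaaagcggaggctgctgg

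In Mmachc, Usp40 and Mpi the single match was to ACTACANNT and began 21, 27 and 58 bases upstream of the start. Zfp111 held 4 matches, of which CCCANNATG at 70 bases and ACTACANNT at 61 bases upstream touched end to end. The RefSeq promoter of Ttc41, which had the greatest increase among called genes with a mean count of at least 100, held neither motif. Its stretch is shown for contrast, but the window lies at the RefSeq start, whereas the ZFP143 peak assigned to Ttc41 lies at the GENCODE start further upstream, outside the window.
Ttc41, chr10:86712675-86712804, plus strand: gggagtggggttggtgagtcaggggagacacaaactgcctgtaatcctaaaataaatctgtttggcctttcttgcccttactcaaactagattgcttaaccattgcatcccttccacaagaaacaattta

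The libraries held 20820746 to 27089033 counts each, and across genes the log2 CPM of replicates correlated with r = 0.996 in DMSO and 0.997 in dTAG, against 0.973 to 0.976 between the groups. CPM (counts scaled to a common library size, with TMM factors) are the levels given throughout. The cells carried the markers of embryonic stem cells, of which all 10 passed the filter and summed to 8309 and 8678 CPM in DMSO and 7143 and 7123 CPM in dTAG. Of the markers of other cells, the neural list summed to 241 and 256 CPM in DMSO and 148 and 144 CPM in dTAG (median log2 change 0.52, with 4 of 6 values positive), and the germ cell list to 27.4 and 29.1 CPM in DMSO and 49.6 and 52.8 CPM in dTAG. Primitive endoderm markers summed to 4.93 and 5.82 CPM in DMSO and 8.97 and 11.4 CPM in dTAG, with 5 of 8 tested and none called. Mesoderm markers summed to 4.27 to 5.56 CPM and trophoblast markers to 7.92 to 10.3 CPM over the 4 libraries. Of the 7 feeder markers 3 were tested and none was called. These 3 summed to 5.18 and 6.15 CPM in DMSO and 7.27 and 7.02 CPM in dTAG (median log2 change 0.69). The feeder markers Dcn and Postn had no count in any of the 4 libraries.

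The transcript of Zfp143 itself (chromosome 7, 110061217 to 110095394) does not check the depletion, since dTAG-V1 removes the protein. It stood at 43.4 and 35.0 CPM in DMSO and at 103 and 97.7 CPM in dTAG. Both dTAG libraries were above both DMSO libraries, and groups were apart, in either direction, for 73.7% of all genes tested. The Zfp143 transcript rose with a log2 change of 1.35 ± 0.09 (SE, n = 2 and 2, adjusted p = 1.33e-07 in edgeR). Hcfc1, the gene of a cofactor that ZFP143 recruits, had 772 and 632 CPM in DMSO and 627 and 623 CPM in dTAG and was not called, with a log2 change of -0.17. The paralog Zfp76 did not pass the filter.

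With ZFP143 depleted, 601 of the 15007 genes were lower and 445 higher, which is 4.00% and 2.97% of the genes tested, by a test against a 1.5-fold change at an adjusted p under 0.01 in edgeR. The decreases were the larger changes. Leaving aside 5 genes without a count in either dTAG library, 226 of the lowered genes fell more than 4-fold and 47 more than 16-fold, while 96 of the raised genes rose more than 4-fold and 3 more than 16-fold. The median log2 change was -1.64 among the lowered and 1.50 among the raised genes, and 0.04 over all genes tested. In every called gene both dTAG libraries lay on the same side of both DMSO libraries, which also held for 73.7% of all genes tested. The count of raised genes moved more with the libraries used. Without 1 library their count was 272 (DMSO replicate 1), 249 (DMSO replicate 2), 302 (dTAG replicate 1) or 233 (dTAG replicate 2), and the DESeq2 test at the same thresholds called 154 higher and 467 lower. Scaling by library size alone, which moved the median of all genes to 0.18, called 496 lower and 650 higher, so that 43.3% of the called genes were lower in place of 57.5%.

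**Figure D1:**
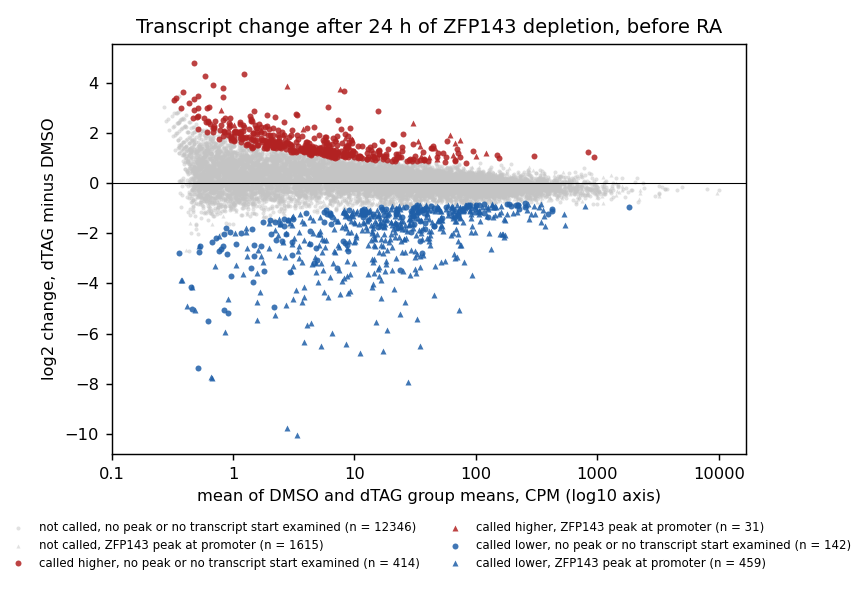
Each point is 1 of the 15007 genes, with its mean level in CPM across both groups on a log axis and its log2 change (dTAG minus DMSO) before RA on the vertical axis. Triangles are genes with a ZFP143 peak at the promoter. The 601 lowered genes (blue) reach further from 0 than the 445 raised genes (red) and are mostly triangles, and apart from Mmachc the points below -7 are the 5 genes with no count in dTAG, whose position is not a measured fold.

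Raised genes were mostly of low abundance. Among genes with a mean count of 30 to 100 over the 4 libraries, 7.53% were raised and 4.06% lowered. Above a mean count of 3000, 0.27% were raised and 2.32% lowered. The median log2 change went from 0.36 for the 2428 genes with a mean count up to 30 to -0.15 for the 1857 genes above 3000. A total of 666 genes passed the filter through a single group, 576 of them through dTAG and 90 through DMSO, and these include 73 of the raised and 60 of the lowered genes, which had to differ to be tested. At the edge of the filter, 194 genes had a second-highest count of 11 and were tested, and 246 had 10 and were not.

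The greatest decreases at a mean count of at least 100 left very few counts in dTAG. Mmachc, which encodes the protein that prepares vitamin B12 for use in the cell, went from 56.1 and 54.4 CPM in DMSO to 0.351 and 0.115 CPM in dTAG. The counts behind these values were 1105 and 982 in DMSO and 7 and 3 in dTAG, and the log2 change was -7.95 ± 0.20 (SE, adjusted p = 3.59e-16 in edgeR). Usp40, a ubiquitin-specific protease gene, had 22.7 and 21.3 CPM in DMSO and 0.301 and 0.115 CPM in dTAG, a log2 change of -6.77 ± 0.24. Mmachc and Usp40 did not hold over 10 counts in either dTAG library. Both passed the filter through DMSO alone, so they had to differ to be tested. Zfp111, a zinc finger gene, had 34.2 and 33.6 CPM in DMSO against 0.100 and 0.499 CPM in dTAG (-6.68 ± 0.23). Its dTAG libraries differed from each other, with 2 and 13 counts, and both were far below DMSO. Mpi, the enzyme that converts fructose-6-phosphate to mannose-6-phosphate, had 65.6 and 70.4 CPM in DMSO and 0.601 and 0.844 CPM in dTAG (-6.51 ± 0.16).

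Further genes of this group serve fatty acids, the mitochondrial ribosome and nucleic acids. Acadvl, the mitochondrial dehydrogenase for very long-chain acyl-CoA, had 35.3 and 38 CPM in DMSO and 0.702 and 0.576 CPM in dTAG (log2 change -5.85 ± 0.18). Rnaseh2c, a subunit of the enzyme that cuts RNA out of DNA, had 28.9 and 29.4 CPM in DMSO and 0.652 and 0.614 CPM in dTAG (-5.52 ± 0.18). Mrps25, a protein of the small mitochondrial ribosomal subunit, had 60.4 and 68.5 CPM in DMSO and 1.40 and 1.61 CPM in dTAG (-5.40 ± 0.14). The remaining genes of the 12 were Enox2 (-6.40), Ccdc90b (-5.99), the long non-coding 4933404O12Rik (-5.23), Ifrd2 (-5.06) and Rabac1 (-4.73). All 12 had a ZFP143 peak at the promoter, with enrichments over input from 21.5-fold at Enox2 to 196-fold at Mrps25.

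**Figure D2:**
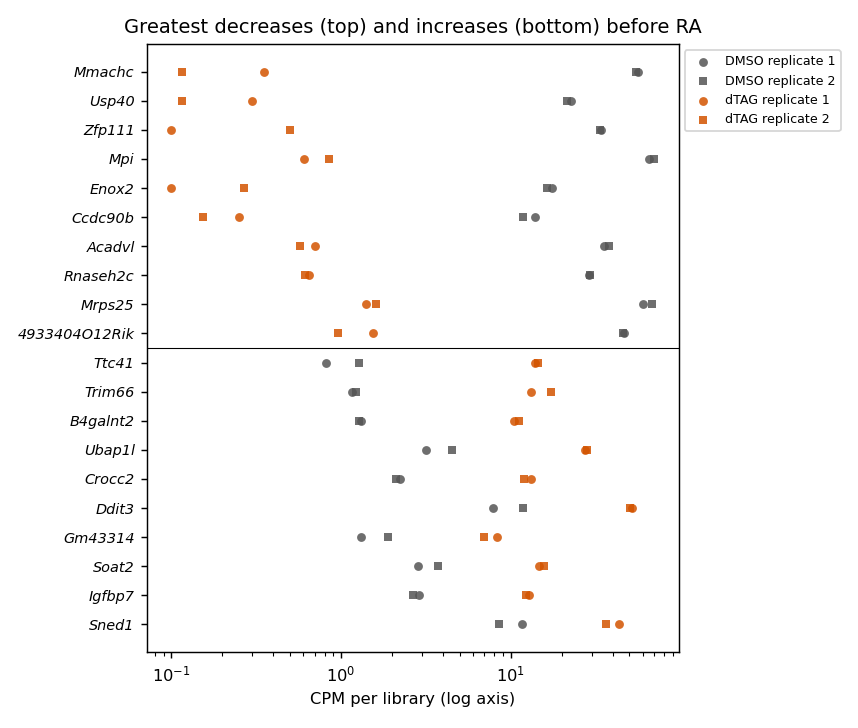
Level in CPM, on a log axis, of each of the 4 libraries for the 10 greatest decreases and the 10 greatest increases among called genes with a mean count of at least 100. Circles are replicate 1 and squares replicate 2, grey for DMSO and orange for dTAG. In every row the groups are apart, as in every called gene, by the widest gap at Mmachc (54.4 CPM or more against 0.351 CPM or less).

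The greatest increases at that mean count started from a low level. Ttc41 (chromosome 10, 86705811 to 86776844) had 0.812 and 1.27 CPM in DMSO and 14 and 14.5 CPM in dTAG, a log2 change of 3.78 ± 0.19 (SE, adjusted p = 1.97e-11 in edgeR). A ZFP143 peak lies at the upstream GENCODE start of Ttc41, whose divergent neighbour Hsp90b1, a chaperone gene of the endoplasmic reticulum that starts 335 bp away, was not called (-0.40). Trim66, a chromatin reader gene, had 1.17 and 1.22 CPM in DMSO and 13.1 and 17.2 CPM in dTAG (3.67 ± 0.20). B4galnt2, a glycosyltransferase gene, had 1.32 and 1.27 CPM in DMSO and 10.4 and 11.1 CPM in dTAG (3.05 ± 0.18). Ubap1l had 3.15 and 4.49 CPM in DMSO and 27.3 and 28.0 CPM in dTAG (2.86 ± 0.15).

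Ddit3, which encodes the stress factor CHOP, had 7.82 and 11.8 CPM in DMSO and 51.9 and 50.5 CPM in dTAG (2.39 ± 0.14). Crocc2 (2.53) and Sned1 (1.96) are neighbours on chromosome 1 and lie on the same strand. Further genes of this group were Gm43314 (2.25), Soat2 (2.22), Igfbp7 (2.17) and Cebpb (1.94). Of the 12 only Ttc41 and Ddit3 had a ZFP143 peak assigned, and that of Ddit3 was centred at -1834 bp from its start.

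ZFP143 occupancy, measured by ChIP-seq in cells that kept ZFP143 and independent of these counts, differed between the lowered and the raised genes. Bound here means that a transcript start had a peak reaching into its surroundings, 2000 bp on the upstream and 1000 bp on the downstream side, and centred no more than 2000 bp away. Such starts were examined for 13265 of the tested genes. Of the lowered genes 459 of 574 were bound (80.0%), against 31 of 421 raised genes (7.36%) and 1615 of 12270 genes that were not called (13.2%). The bound share was 76.6% among genes that fell up to 4-fold, 85.4% among those that fell more than 4-fold, and 45 of 48 (93.8%) among those that fell more than 16-fold. The peak list has no replicates, so these shares are a description. With only peaks at or above the median enrichment of the list, the share of genes with a ZFP143 peak at the promoter was 69.2% among the lowered genes.

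Most bound genes were not called. Of the 2105 bound genes tested, 459 were lowered (21.8%), 31 were raised and 1615 were not called (76.7%). The lowered share went from 10.8% in the quartile of bound genes with the weakest peaks to 34.4% in that with the strongest, and was 1.03% in the 11160 genes without a peak. The median log2 change was -0.18 and -0.50 in these quartiles and 0.10 without a peak.

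**Figure D3:**
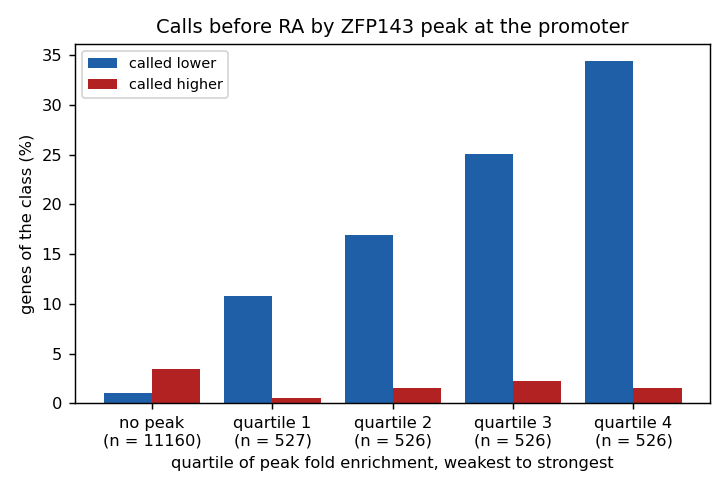
Share of genes called lower (blue) and called higher (red) before RA, in percent, among genes without a ZFP143 peak at the promoter and among bound genes split into quartiles of peak enrichment over input. The lowered share is 1.03% without a peak and 10.8% to 34.4% across the quartiles.

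A peak lay at the starts of 2 tested genes in 305 cases, and in 299 of them the genes were on opposite strands. Both genes were lowered at 14, 1 was lowered and the other not called at 51, and neither was called at 221. Ccdc163, the divergent neighbour of Mmachc, fell with a log2 change of -3.90 (Mmachc -7.95). Zmat5 and Uqcr10 fell together, with -3.50 and -2.93, and so did Pomt2 and Gstz1, with -3.36 and -1.67. Asl, next to the lowered polymerase III gene Crcp (-2.54), had 0.10 and was not called. At 3 peaks 1 gene was lowered and the other raised, as for Ndufa3 (-1.39), a complex I subunit, and Oscar (2.31) on the opposite strand.

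The motifs were counted in the promoter letters as well. Among 27025 RefSeq promoters of the same length, with 1 window taken per gene, 5.10% held CCCANNATG and 4.40% held ACTACANNT on either strand. Of the lowered genes with a promoter in the table, 19.3% of 451 held CCCANNATG and 42.1% held ACTACANNT. Of 314 raised genes, 5.73% and 1.59% did. Of 85 lowered genes without a peak, 3.53% and 5.88% did. Among bound genes the shares were 23.0% and 50.5% of 366 lowered genes and 13.0% and 22.9% of 1317 genes not called. A match says only that these letters are present.

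Nuclear genes of the mitochondrion were among the decreases, from 1 to 7 in each list. All gene lists were chosen with earlier results of these data known, and each is described by its calls and its median against 4.00% lowered, 2.97% raised and a median of 0.04 over all genes. Of 77 mitochondrial ribosome genes tested, 7 fell and none rose, with a median log2 change of -0.04, and the 7 were all bound. Mrps25 led them, followed by Mrpl24 (-2.81), Mrpl54 (-2.47) and Mrpl34 (-2.45). Of 37 complex I subunit genes, Ndufa3 (-1.39) and Ndufa5 (-1.01) fell. Of 40 subunit genes of complexes II to V, 5 fell, and all 5 were bound. Over the 40 the median was -0.19, 33 values were negative, and the summed level was 12299.9 and 12829 CPM in DMSO and 10969.7 and 10717 CPM in dTAG.

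Cox7c, a subunit of cytochrome c oxidase, had 90.2 and 77.2 CPM in DMSO and 8.92 and 8.29 CPM in dTAG (log2 change -3.29 ± 0.10). Uqcr10, a subunit of complex III, had 128 and 120 CPM in DMSO and 16.4 and 16.2 CPM in dTAG (-2.93 ± 0.09). Atp5d, the delta subunit of ATP synthase, had 238 and 296 CPM in DMSO and 65.8 and 64.3 CPM in dTAG (-2.04 ± 0.09). The 2 groups did not overlap for any of these 3 genes, which held for every called gene and for 73.7% of all genes tested.

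The genes encoded by mitochondrial DNA (mtDNA) did not pass the test. Of the 9 tested none was called, the median log2 change was -0.25, and 8 of 9 values were negative. mt-Nd6 had the lowest value (-0.64 ± 0.19) and mt-Rnr1, the small mitochondrial rRNA, the highest (0.35). They took 2.08% and 1.65% of counts in DMSO and 1.64% and 1.69% in dTAG, so that DMSO replicate 2 lay at the level of the dTAG libraries. Tfam, which packages and transcribes mtDNA, had 97.4 and 92.8 CPM in DMSO and 65.0 and 64.1 CPM in dTAG (-0.56 ± 0.07, not called). In the edgeR test of no change its adjusted p was 5.58e-06. Of the other 32 nuclear genes for mtDNA transcription and copying, Fastkd1 (-1.79) was called lower.

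Called decreases also stood in the mannose and zinc finger lists. Of 32 genes for mannose and O-mannose glycosylation, 5 fell, and all were bound, while the median was -0.01. Beside Mpi these include Pomgnt2 and Pomt2, which act on the O-mannose glycans of dystroglycan, with log2 changes of -5.25 and -3.36, and Gmppa (-2.71). In the zinc finger cluster around Zfp111 on chromosome 7, 7 of 12 genes fell and 11 of 12 were bound, with a median of -1.57. Of the 7, Zfp94, Zfp108, Zfp112 and Zfp114 passed the filter through DMSO alone, so they had to differ to be tested. Without DMSO replicate 2 or either dTAG library 5 of them were called, and under DESeq2 4. Zfp94 had 4.87 and 5.71 CPM in DMSO and 0.150 and 0.192 CPM in dTAG (-4.88), and Zfp108 had -3.27. Zfp114 had 31 counts in DMSO and 1 in dTAG, a ratio of 0.026 with a 95% counting interval of 0.00065 to 0.159. These genes are paralogs, so the split of reads among them is uncertain.

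Several further lists held 1 or 2 called genes. Bckdk, the kinase that restrains branched-chain amino acid breakdown, fell with -4.47, and Acad8 of the same list with -2.02, out of 23. Hdac8, the deacetylase of cohesin, fell with -4.76 and was the only one of 15 CTCF and cohesin genes called. Gtf2h4, a subunit of TFIIH, fell with -3.58 (1 of 10), and the RNase P subunits Rpp30 and Rpp40 with -3.11 and -1.22 (2 of 11). In heme synthesis Cpox, to which no peak of the list used here was assigned by this window, fell with -3.47. Other lists had 1 call each, shares near the 4.00% over all genes, with Mtrf1 (-2.26) of 27 mitochondrial translation factors, Gatb (-1.57) of 20 mitochondrial tRNA synthetases, Coa3 (-1.23) of 43 respiratory chain assembly genes, and Dnm1l (-1.16) of 17 fission and fusion genes. Of the 84 cytosolic ribosomal protein genes tested, 31 had a peak and none was called, with a median of -0.07.

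Of 14 chaperonin genes Pfdn6 (-0.997) and Tcp1 (-0.92) were called lower. Of 28 polymerase III and SNAPc genes Crcp (-2.54) and Polr3g (-0.85) were called lower and Polr3gl (1.43) higher, and of 18 genes for cobalamin and the methionine cycle Mmachc and Ahcy (-0.90) were called lower. In the selenocysteine list of 24 Sepsecs fell (-1.77) while Selenop (1.92) and Selenon (1.41) were called higher, calls that were lost without DMSO replicate 1, without DMSO replicate 2 and under DESeq2, and Selenop passed the filter through dTAG alone. Of 30 mitotic regulators Birc5 (-1.22) and Kif20a (-0.83) fell, the second of which was not called without DMSO replicate 2, without either dTAG library or under DESeq2. None of 31 DNA replication licensing genes (median -0.24), of 25 cholesterol synthesis genes (median -0.05) or of 8 tested replication-dependent histone genes was called, the last in poly(A) libraries that hold few histone transcripts.

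Glycolysis genes had no peak. Of 26 tested, 8 were called lower and none higher, the median log2 change was -0.45, 24 of 26 values were negative, and none of the 26 was bound. Slc16a3, the lactate exporter MCT4, had 58.3 and 56.9 CPM in DMSO and 9.82 and 13.4 CPM in dTAG (-2.29 ± 0.12). Tpi1, triosephosphate isomerase, had 535 and 566 CPM in DMSO and 228 and 246 CPM in dTAG (-1.22 ± 0.08). Bnip3, a mitophagy gene induced by hypoxia, and Aldoc, an aldolase, fell with -1.26 and -1.14. The 2 groups were apart for each of these 4 genes, which held for every called gene and for 73.7% of all genes tested. Between 4 and 9 members were called lower across the alternative fits at the same thresholds.

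The ATF4 and integrated stress response list held 12 of the raised genes. Of 43 tested, these 12 were called higher and none lower, with a median of 0.42 and positive values for 38. Of the 12, 3 had a ZFP143 peak. Slc7a11, the cystine importer, had 0.863 and 0.831 CPM in DMSO and 5.21 and 6.18 CPM in dTAG (2.75 ± 0.29). Cebpb had 1.68 and 2.55 CPM in DMSO and 7.97 and 8.17 CPM in dTAG, and Atf3 had 2.29 and 2.77 CPM in DMSO and 9.07 and 9.02 CPM in dTAG (1.84 ± 0.27), a call lost without DMSO replicate 1 and under DESeq2. Both are stress-induced transcription factors. Other members were not called. Asns, asparagine synthetase, had 0.20, Atf4 itself 0.14 and Shmt2 -0.29. Across the alternative fits at the same thresholds 8 to 13 members were called higher.

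Of 34 p53 targets only Trim66 was called, with a median of 0.16 and positive values for 25. In a separate time course of the same treatment 3 of the 34 were called higher (median 0.27). Cdkn1a, the cell cycle inhibitor p21, had the lowest log2 change of the list before RA (-0.63), and Mdm2 had 0.11. Basement membrane genes had 3 of 13 members raised, and all 13 values were positive. Col4a1 and Col4a2, the divergent pair for collagen IV, had 16.7 and 14.1 CPM against 44.6 and 46.4 CPM, and 6.09 and 6.04 CPM against 15.1 and 19.1 CPM, with log2 changes of 1.56 and 1.50. Lamb1 rose with 0.96.

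**Figure D4:**
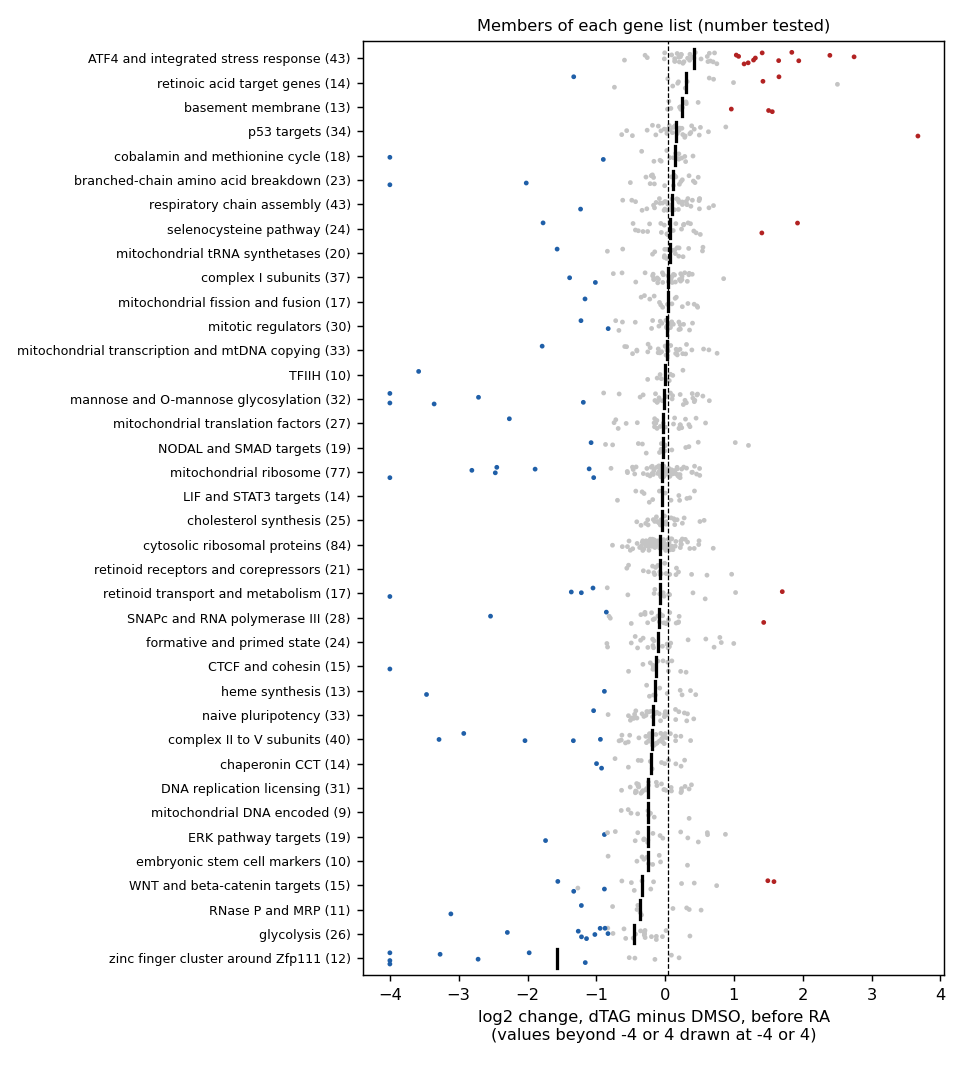
Log2 change before RA (dTAG minus DMSO) of every tested member of the lists with at least 9 tested members, blue where called lower, red where called higher and grey where not called. Values beyond -4 are drawn at -4, black bars are list medians and the dashed line is the median of all genes (0.04). Most lists hold a few far points on the lower side and a median near 0, glycolysis (median -0.45) and the Zfp111 cluster (-1.57) lie lower as a whole, and the ATF4 list (0.42) lies highest.

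The naive pluripotency genes gave 1 call before RA, with a median of -0.18 and 23 of 33 values negative. In a separate time course of the same treatment the median was -0.27 and 5 of the 33 were called lower. Of the 10 stem cell markers 9 had negative values (median -0.25). Of 33 genes tested, Klf2, a naive state factor, was called lower, from 523 and 620 CPM in DMSO to 279 and 277 CPM in dTAG (-1.04 ± 0.10), and none was called higher. The call of Klf2 was lost without DMSO replicate 2 and under DESeq2. Pou5f1 had 1439 and 1601 CPM in DMSO and 1472 and 1432 CPM in dTAG, groups that overlapped (-0.07 ± 0.13). Sox2 had -0.24 ± 0.09, Nanog -0.31 ± 0.13, Esrrb -0.41 ± 0.14, Klf4 -0.18 ± 0.15 and Zfp42 -0.09 ± 0.07, none of them called. The signs of Pou5f1 and Zfp42 turned under scaling by library size alone. Tdh, the threonine dehydrogenase that mESCs depend on, had 1170 and 1387 CPM in DMSO and 736 and 704 CPM in dTAG (-0.83, adjusted p = 0.0188 in edgeR, above the threshold).

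Genes of the formative and primed state gave no call (24 tested), nor did LIF and STAT3 targets (14 tested). Of 19 ERK targets, Spry4 (-1.74) and Ccnd1 (-0.88) fell. Of 15 WNT targets, Sp5 (-1.56), Cdx1 (-1.33) and Ccnd1 fell while Nkd1 (1.58) and Sp8 (1.49) rose. Each of these 5 calls was lost in some fit without 1 library, leaving 0 lower and 1 higher without dTAG replicate 2, and DESeq2 called none. Of 19 NODAL and SMAD targets Id1 (-1.08) was called, which was lost without any 1 of the 4 libraries and under DESeq2.

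The receptors that read RA were not called. None of 21 receptor and corepressor genes passed the test in either direction, with a median of -0.07. Rarg, an RAR gene, had 119 and 127 CPM in DMSO and 84.0 and 83.5 CPM in dTAG (-0.56 ± 0.08, not called against a 1.5-fold change). Its dTAG libraries were both below both DMSO libraries, and so were those of Rxrb (-0.53 ± 0.08), which had a peak. Groups were apart for 73.7% of all genes tested. The edgeR test of no change, at an adjusted p under 0.05 and a log2 change beyond 0.5, called 2 of the 21 lower and 1 higher. The 2 were Rarg (adjusted p = 1.61e-05 in that test) and Rxrb (2.72e-05). Rara had 93.6 and 103 CPM in DMSO and 107 and 112 CPM in dTAG (0.16 ± 0.07), and Rxra had 28.5 and 30.3 CPM in DMSO and 29.9 and 31.6 CPM in dTAG, groups that overlapped. Rarb, itself an RA target, did not pass the filter.

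Enzymes that handle retinoids did include called genes. Of 17 tested, 4 fell and 1 rose, and the 4 were bound. The counts were 2 and 0 without dTAG replicate 2 and 1 and 0 under DESeq2. Rdh11, a retinol dehydrogenase, had 54.9 and 56.6 CPM in DMSO and 21.5 and 21.8 CPM in dTAG (-1.36 ± 0.08). Rdh14 had -1.22 and Dgat1, which esterifies retinol as well as fats, had -1.05. Rdh12 passed the filter through DMSO alone, with 33 counts in DMSO and 2 in dTAG, a ratio of 0.050 with a 95% counting interval of 0.0058 to 0.194. Rbp4, the retinol carrier of blood, rose from 0.457 and 0.499 CPM to 1.65 and 1.5 CPM (1.70). It had 9 counts in each DMSO library and so passed the filter through dTAG alone, and its call was lost without each of the 4 libraries in turn, while that of Rdh14 was lost without 3 of them. The RA-binding proteins Crabp1 (-0.15) and Crabp2 (-0.03) were not called, nor was Dhrs3 (1.02, adjusted p = 0.157 in edgeR), which reduces retinal. Cyp26a1, the enzyme that degrades RA, did not pass the filter.

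Of 14 RA target genes tested, before any RA was added, Meis1 and Stra8 rose and Cdx1 fell. Meis1 had 0.965 and 0.942 CPM in DMSO and 2.86 and 3.15 CPM in dTAG (1.65 ± 0.29), Stra8 had 0.762 and 0.776 against 2.41 and 1.8 CPM (1.42 ± 0.26), and Cdx1 had 14.5 and 18.9 against 6.31 and 6.91 CPM (-1.33 ± 0.22). All 3 calls were lost without DMSO replicate 2 and under DESeq2, and that of Stra8 also with a replicate term in the fit.

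Among markers of other states, the 2-cell-like genes Zscan4d (1.64) and Gm8300 (1.50) were called higher, 2 of the 4 tested, and the list summed to 3.35 and 2.05 CPM in DMSO and 7.72 and 7.91 CPM in dTAG. No member was called without DMSO replicate 2 or without dTAG replicate 1, and Gm8300 lost its call without any 1 of the 4 libraries. Its call was also lost with a replicate term in the fit and under DESeq2. In bulk RNA, more cells of a kind and more RNA per cell cannot be told apart. Dazl, a germ cell gene, rose (1.29). Tubb3, a neural tubulin gene, fell from 157 and 168 CPM to 75.5 and 67.5 CPM (-1.18 ± 0.08), while Sox1 (0.48) and Pax6 (0.91) were not called. Krt7, of the trophoblast list, was called lower (-2.79) on 24 counts in DMSO and 4 in dTAG. It passed the filter through DMSO alone, and the call was lost without any 1 of the 4 libraries and under DESeq2.

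The same 24 h treatment was sequenced a second time, in an RNA-seq time course with its own DMSO libraries and total counts of 10989976 to 15316700 in the 4 libraries used. There 527 of 13783 genes were called lower (3.82%) and 327 higher (2.37%) by the same test. Of the 582 lowered genes that could be tested in both sets, 445 (76.5%) were called lower again, and 180 (45.9%) of 392 raised genes were called higher again. These are 85.7% of the lowered and 55.6% of the raised calls of the time course among genes tested in both. No gene was called in opposite directions. Over 13616 genes the log2 changes correlated with r = 0.852 (Pearson) and rho = 0.741 (Spearman), across genes that are not independent replicates. All 12 greatest decreases and 10 of the 12 greatest increases were called in the same direction in the time course, where Gm43314 (1.14) was not called.

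Some values differed between the sets, which were normalized separately and are set side by side without a test, with genes chosen after their values were seen. Acadvl had -5.85 here and -8.95 in the time course, Col4a1 1.56 and 3.05, Col4a2 1.50 and 3.34, and mt-Nd5 -0.54 and -0.87. The mtDNA list had a median of -0.25 here and -0.61 in the time course, where 2 of 9 were called lower. Glycolysis had 8 of 26 called lower here and 10 of 26 there, and the ATF4 list 12 and 11 of 43 called higher.

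**Figure D5:**
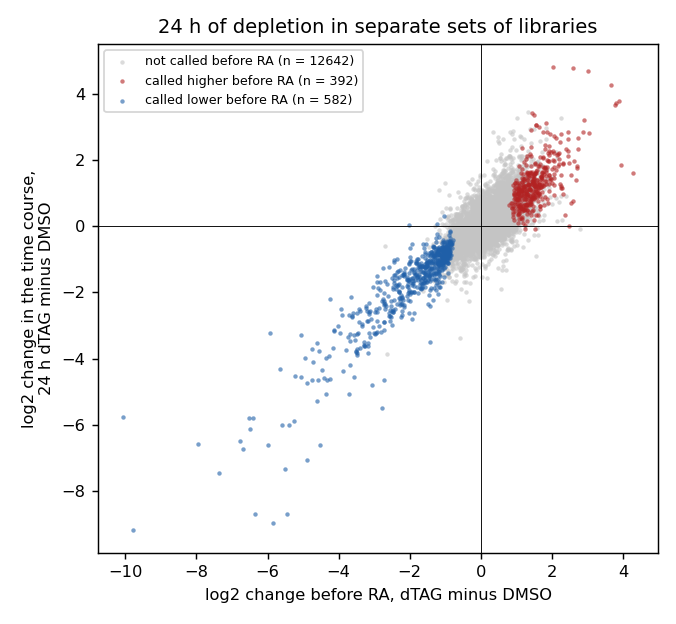
Log2 change before RA (horizontal) against the log2 change at 24 h in the separate RNA-seq time course (vertical) for the 13616 genes tested in both, with 582 lowered (blue) and 392 raised (red) genes before RA. The points run along the diagonal, with r = 0.852 across genes, and no called gene is called in opposite directions.

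TT-seq, which reads newly made RNA after a short pulse of 4-thiouridine, gave 806 of 17977 genes lower (4.48%) and 388 higher (2.16%) at 24 h, at an adjusted p under 0.05 and a log2 change beyond 0.5 in edgeR. Of the lowered genes tested in both assays, 409 of 580 (70.5%) were also lower in TT-seq, and of the raised genes 132 of 406 (32.5%) were also higher. These are 58.0% and 43.1% of the TT-seq calls, and none was opposite. Of the named raised genes, Trim66 (2.77), Igfbp7 (2.35) and Cebpb (2.71) were called in nascent RNA, while Ddit3 (0.92) and Atf3 (1.27) were not. The lowered glycolysis genes Slc16a3 (-2.44) and Tpi1 (-1.42) were not called in nascent RNA either, in this fit without a replicate term. Leaving out any of the 4 TT-seq libraries moved these counts by more than 1.5 times, to 425 and 112 (DMSO replicate 1), 522 and 195 (DMSO replicate 2), 398 and 146 (24 h replicate 1) or 353 and 138 (24 h replicate 2). With a replicate term the TT-seq fit called 1279 lower and 1049 higher. The biological coefficient of variation was 17.3% in TT-seq and 5.86% in the RA table.

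The effect of depletion was then compared with that after 24 h of RA in the same experiment, when the dTAG cells had been depleted for 48 h. RA, the change of medium and the longer depletion came together and cannot be told apart. In a test of the difference itself, the depletion effect was more negative after RA in 2638 genes (17.6%) and more positive in 2266 (15.1%) of the 15007, at an adjusted p under 0.05 and a difference beyond 0.5 on the log2 scale. Which direction had more genes turned under library size alone and without dTAG RA replicate 2. Among the 601 genes lowered before RA, the effect was more positive after RA in 374, more negative in 29 and not called different in 198, and 524 kept a negative value. Their median log2 change was -1.64 before and -0.91 after RA. Among the 445 raised genes the effect was more negative in 252, more positive in 15 and not called different in 178, with medians of 1.50 and 0.66. The libraries before RA chose these genes and also entered the difference, so their shift toward 0 is no independent measurement.

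Among single genes, Usp40 had a log2 change of -6.77 before and -2.63 after RA, a difference of 4.14, and Zfp94 went from -4.88 to -0.03. Acadvl (-5.85 and -5.07) and Rnaseh2c (-5.52 and -4.93) were not called different. Ttc41 (3.78 and 3.49), Igfbp7 (2.17 and 1.96), Crocc2 (2.53 and 2.52) and Zfp143 (1.35 and 1.40) were not called different either. Esrrb had -0.41 before and 2.46 after RA, Dhrs3 1.02 and -2.53, Crabp2 -0.03 and -3.21, and Meis1 1.65 and -1.73, all called different.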

How the data were processed

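The whole-number counts per gene were deposited by the authors, who aligned paired-end reads of stranded poly(A) libraries to mm10 with STAR and its gene counting mode. The strand column used is not given in the sources used here, so overlapping and antisense genes are uncertain. ZFP143 peaks carry a fold enrichment over input as deposited by the authors. Symbols and positions came from GENCODE vM21 and promoters from RefSeq.

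Counts were fitted in edgeR 4.0.16 (R 4.3.3, limma 3.58.1) with all 8 libraries of the table, 4 groups, TMM factors and a quasi-likelihood model. Genes were called by glmTreat against a 1.5-fold change at a Benjamini-Hochberg adjusted p under 0.01. The difference after RA and TT-seq used the quasi-likelihood test at 0.05 and a log2 value beyond 0.5. DESeq2 1.42.0 was an alternative. The fits were tested on simulated data. Replicates are biological per the study's methods, with 2 per group. The libraries before RA held 20820746 to 27089033 counts and those after RA 13890761 to 21650358, which limits the precision of low counts.

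Named genes are the 12 greatest decreases and increases among called genes with a mean count of at least 100, up to 4 called members per list and direction (the 2 farthest where none was called), and ZFP143, pluripotency and retinoid genes. Asns, Atf4, Shmt2, Cdkn1a, Mdm2, Sox1, Pax6, mt-Rnr1 and the neighbours that shared a peak were chosen after their values were seen. Members and lists were chosen with earlier results of these data known. Some genes that the rule names are not reported here.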

Additional observations from a re-analysis of the deposited data

Results flagged for a closer look

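The depletion effect after RA was tested against that before RA in the same fit, and the results here are those whose difference passed that test (adjusted p under 0.05 in edgeR and beyond 0.5 on the log2 scale). Over all genes the effect was more negative after RA in 2638 and more positive in 2266, a balance that turned under library size alone (2349 and 2505) and without dTAG RA replicate 2 (2290 and 2343). Of 41 genes looked at here (the greatest decreases and increases, Zfp143, Hcfc1, Tfam and the pluripotency and retinoid genes that the naming rule fixes), 24 differed. Values below are after minus before RA on the log2 scale.

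The greatest decreases and increases were chosen by their value before RA, which enters the difference with a minus sign, so for them a shift toward 0 is favoured by the choice and is given as a description. Among the greatest decreases before RA, 10 had a positive difference, with Mmachc at 1.72, Usp40 at 4.14, Zfp111 at 3.56, Mpi at 1.98, Enox2 at 3.22, Ccdc90b at 2.94, Mrps25 at 1.37, 4933404O12Rik at 2.66, Ifrd2 at 1.98 and Rabac1 at 2.49. Among the greatest increases, Sned1 had -1.60, Ddit3 -1.09, B4galnt2 -1.10, Trim66 -0.89 and Soat2 0.78. Of the pluripotency genes Esrrb had 2.87, Klf4 1.58, Sox2 0.87, Zfp42 0.76 and Nanog 0.55. Of the retinoid genes Rarg had 0.82, Rara 0.54, Crabp2 -3.18 and Dhrs3 -3.55.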

How the results depend on the processing

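No call of the whole comparison turned direction under any alternative. The count of raised genes ranged from 233 to 302 and that of lowered genes from 487 to 561 when 1 library was left out, and the DESeq2 test called 154 higher. A quasi-likelihood test of no change, with the looser thresholds of an adjusted p under 0.05 and a log2 change beyond 0.5, called 1379 lower and 2233 higher. Of 93 called named genes 65 kept their call throughout, and none was reversed. Beside those given with their lists, calls were lost without dTAG replicate 2 for Ahcy, Coa3, Dgat1, Lamb1, Ndufa5, Polr3g and Tcp1, without DMSO replicate 2 for Ahcy and Lamb1, without DMSO replicate 1 for Atf3, under DESeq2 for Ahcy, Atf3, Dgat1, Lamb1 and Polr3g, and under library size alone for Ahcy, Ndufa5, Polr3g and Tcp1. Among genes not called, the sign turned under library size alone for Zfp42 (0.055), Pou5f1 (0.075) and Crabp2 (0.113). With 1 library left out, Pou5f1 ranged from -0.140 to 0.015 and Crabp2 from -0.243 to 0.210, positive without DMSO replicate 2 for both and without dTAG replicate 2 for Crabp2 (0.071). Peaks at or above the median enrichment gave a share of genes with a ZFP143 peak at the promoter of 69.2%. In TT-seq at 24 h the unfiltered fit gave 1025 higher, and leaving out 1 library gave 353 to 522 lower and 112 to 195 higher. The effect after RA was more negative than before in 2290 to 2566 genes and more positive in 2082 to 2343 with 1 library left out, and in 3306 and 2070 without a filter. The causes were not tested.

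No source says what a replicate number shares, and 2 pairs are too few to read a pairing from the data. The deviations of same-numbered DMSO and dTAG libraries correlated at 0.18 before RA. With the replicate block 590 genes were lower and 413 higher before RA, and Stra8 and Gm8300 lost their calls. A fit of the 4 libraries before RA alone lost those of Stra8, Gm8300, Rbp4 and Selenon. In TT-seq, where the correlation was 0.73, the block gave 1279 lower and 1049 higher, so the TT-seq calls and overlaps given without it depend on this choice. In the time course (correlation -0.12) the crossed pairing, chosen after seeing the data, gave 531 lower and 333 higher. With 2 libraries a group, low counts limit the calls.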
